A study of Mus musculus with 8 samples.

Results

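The respiratory chain and the ATP synthase of the inner mitochondrial membrane were examined in pancreatic islets of Tcf1 knock-out and wild type mice. Members were the probe sets whose only annotated gene symbol names a nuclear-encoded subunit of complex I, II, III, IV or V, by the start of the symbol (Ndufa, Ndufb, Ndufc, Ndufs, Ndufv, Sdha to Sdhd, Uqcr, Cyc1, Cox4 to Cox8 and Atp5). This gave 77 of 13675 genes and 114 of 24965 probe sets, with 100 of 12488 probe sets on the Affymetrix array MG-U74A (72 genes) and 14 of 12477 on MG-U74B (14 genes). They also include the complex I assembly factors Ndufaf1, Ndufaf2, Ndufaf3, Ndufaf4, Ndufaf5 and Ndufaf8, which are not subunits of the finished complex. The rule used annotation and no measured value, but it was set with earlier results of these data known.

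Total islet RNA of knockout mice was hybridised to 2 arrays of each type, and RNA of wild type mice to 2 arrays of each type. The labels call the replicates biological and give no strain, age, sex or number of pooled animals, and no cell type in which the gene was removed. Whether the targeted gene was lowered was not analysed here, and the genotypes are those of the labels. Values are the authors' linear intensities, which can lie below 0, and a log2 change is knockout minus wild type of log2(intensity + 25.02), where the constant is 10% of the common trimmed mean and values below 0 count as 0, with its standard error. "Rose" and "fell" mean an adjusted p below 0.05 in limma's moderated test over all tested probe sets of the array type, with Benjamini-Hochberg adjustment. The smallest p of an exact permutation test of 2 arrays against 2 is 0.333, and the p-values given therefore depend on limma sharing its estimate of the spread across probe sets.

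The respiratory chain moves electrons from NADH (complex I) and succinate (complex II) through ubiquinone, complex III and cytochrome c to complex IV, which reduces oxygen, and the protons pumped on the way drive complex V, the ATP synthase. In the beta cell, ATP made this way from glucose closes potassium channels in the cell membrane and so starts the release of insulin. Most subunits are encoded in the nucleus and a few core subunits in mitochondrial DNA. The mitochondrially encoded subunits were not analysed here.

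The promoters of 6 members, chosen from the larger changes after their values were seen, are shown with their matches to motifs known from respiratory genes. Capitals mark matches to the GABP motif CCGGAAG, the NRF1 motif GCGCANGCG and the CCAAT box GCCAAT on either strand, in the 150 bases before the annotated start (RefSeq, GRCm38.p6, each read in the direction of its gene). The first 4 genes rose in knockout islets and the last 2 fell.
Atp5o, chr16:91931631-91931780, minus strand: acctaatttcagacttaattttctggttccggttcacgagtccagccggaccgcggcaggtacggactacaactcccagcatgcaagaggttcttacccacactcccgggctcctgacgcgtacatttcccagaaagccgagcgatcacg
Atp5e, chr2:174464102-174464251, minus strand: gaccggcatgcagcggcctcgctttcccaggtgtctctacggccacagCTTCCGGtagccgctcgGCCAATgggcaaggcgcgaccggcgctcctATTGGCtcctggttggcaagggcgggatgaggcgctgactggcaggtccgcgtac
Ndufa9, chr6:126849145-126849294, minus strand: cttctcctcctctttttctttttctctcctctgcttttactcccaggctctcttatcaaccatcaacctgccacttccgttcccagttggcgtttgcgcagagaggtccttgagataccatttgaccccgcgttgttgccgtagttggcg
Uqcr11, chr10:80406822-80406971, minus strand: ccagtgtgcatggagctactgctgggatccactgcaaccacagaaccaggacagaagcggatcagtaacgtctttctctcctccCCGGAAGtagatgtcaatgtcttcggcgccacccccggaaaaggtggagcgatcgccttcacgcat
Cox6a1, chr5:115348959-115349108, minus strand: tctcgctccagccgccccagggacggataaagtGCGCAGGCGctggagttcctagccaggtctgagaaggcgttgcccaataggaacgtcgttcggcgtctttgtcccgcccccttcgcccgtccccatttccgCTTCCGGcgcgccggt
Ndufb2, chr6:39592415-39592564, plus strand: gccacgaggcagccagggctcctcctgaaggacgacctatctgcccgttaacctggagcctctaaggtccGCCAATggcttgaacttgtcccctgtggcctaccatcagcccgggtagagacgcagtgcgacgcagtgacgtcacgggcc
Genes that moved in opposite directions held the same motif in these windows. A GABP match stood in Atp5e and Uqcr11, which rose, and in Cox6a1, which fell. The stretches shown of Atp5o and Ndufa9 held none of the motifs searched, but the wider windows used next hold an NRF1 match in Atp5o, a YY1 match in Ndufa9 and also an NRF1 match in Uqcr11.

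In windows of 250 bases before to 50 after the start, a GABP match stood in 17 of the 63 member genes with a promoter entry (27.0%), against 9.93% of all 27025 genes with one. The share was 25.4% (16 of 63) for NRF1, against 7.03% of all genes. It was 9.52% (6 of 63) for the YY1 motif ANATGGCGG, against 2.19%, and 23.8% (15 of 63) for the CCAAT box, against 16.7%. The ERRA motif TNAAGGTCA stood in 1 of the 63, or 1.59%, against 1.43%. Among genes that rose, 7 of 20 with an entry held GABP, 5 NRF1, 1 YY1 and 2 the CCAAT box. Among genes that fell, 4 of 8 held GABP, 1 NRF1, 1 YY1 and 2 the CCAAT box. Both strands were searched, the motifs were allowed to overlap, and a match is a description of letters only.

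On MG-U74A the subunits moved in both directions within every complex, and their median change lay near 0. Of the 100 probe sets, 76 (66 genes) passed the filter on low values and were tested, and the other 24 were below it, with no array above 96.4. Among those tested, 25 rose and 18 fell in knockout islets. In the same comparison 23.9% of all 7516 tested probe sets rose and 29.0% fell, 52.9% in all, so changes in either direction were common on these arrays. The members' shares were 32.9% and 23.7%. The median log2 change of the members was 0.06, with quartiles of -0.29 and 0.37, and that of all tested probe sets was -0.09, with quartiles of -0.56 and 0.42. Without wild type replicate 1 the members gave 12 rises and 11 falls, and without wild type replicate 2 they gave 12 and 10.

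The changes of the subunits were mostly small. The median over members of the mean intensity was 829, against 266 for all tested probe sets, although intensities of different probe sets do not compare amounts of transcript. Changes of less than 1.5-fold on the log2 scale were found for 59 of 76 members (77.6%), against 55.9% of all tested probe sets. Changes of at least 1 log2 unit were found for 9 members (11.8%), of which 8 passed the test, against 23.2% of all. Both knockout arrays lay above both wild type arrays for 32 members and below them for 27, so that 77.6% did not overlap, against 79.1% of all tested probe sets. The 43 called members were all among these. Of the 77 genes, 8 had no tested probe set on either array type, namely Ndufa1, Ndufa12, Ndufc2, Ndufs4, Ndufaf2, Ndufaf5, Cox7a1 and Cox8a.

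Of the 43 calls, 20 (11 rises and 9 falls) were also made, in the same direction, in each of 11 other fits, of which 4 left out 1 array and 7 changed the constant, the scaling, the filter (to none), the variance trend or the replicate block. Of all 3974 calls on this array type, 50.2% were. The 20 probe sets were those of Ndufa3, Ndufa9, Ndufv1, Uqcr10, Uqcr11, Cox7a2, Cox7a2l, Atp5e, Atp5o and Atp5l (2 probe sets), which rose, and Ndufb2 (2 probe sets), Cyc1, Uqcrc2, Uqcrq, Cox6a1, Atp5a1, Atp5j and Atp5md, which fell.

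The islets of the genotypes also differed in other measures. The 3' control probe set of Gapdh divided by the 5' one, which is higher where the labelled RNA is less complete, was 0.949 and 0.937 on the knockout arrays of MG-U74A and 3.15 and 3.22 on the wild type arrays. The same quotient for actin differed less, with 1.16 and 1.12 on the knockout arrays and 1.47 and 1.45 on the wild type arrays. Lymphocyte markers rose for 17 of 19 tested probe sets, which cover 8 genes and are mostly probe sets of Ighm. The summed levels of the markers were 38254 and 37847 in knockout and 7172 and 7157 in wild type islets, where Cd79a was listed below 0. In knockout islets 1 Ighm probe set alone read 12677 and 11697. Macrophage markers rose for 8 of 9, with sums of 10010 and 10126 against 3669 and 3697, and fibroblast markers rose for 13 of 15, with sums of 23009 and 24538 against 7223 and 7266. Islet endocrine markers fell for 11 of 11, with sums of 99693 and 89740 against 144311 and 144935, and Slc2a2 was near 0 in knockout islets, with 31.5 and 13.2, against 705 and 662 in wild type islets. Acinar markers fell for 6 of 6, with sums of 4970 and 4536 against 37477 and 37728, and Clps had 44.2 and -60.5 in knockout islets. The part of the cell mixture and of RNA completeness in the results on subunits was not tested, and fewer cells of a type and less RNA per cell cannot be told apart in these samples.

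**Figure D1:**
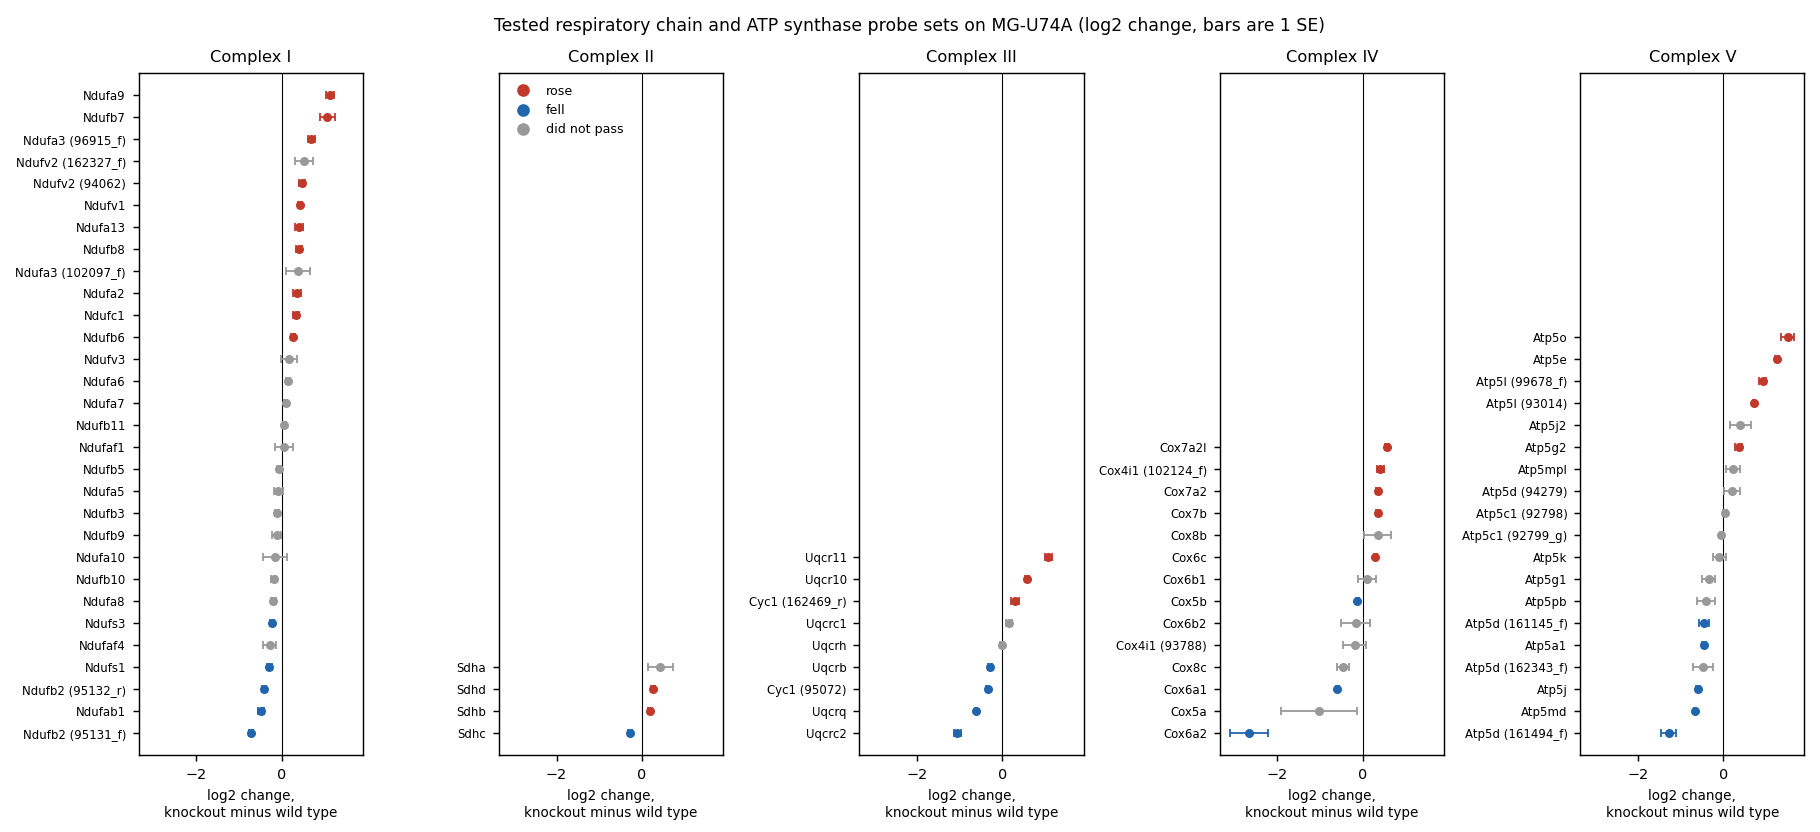
Log2 change, knockout minus wild type, of the 76 tested member probe sets on MG-U74A, 1 panel for each complex, with bars of 1 standard error. Red points rose, blue points fell and grey points did not pass, and each complex holds all 3 kinds, with Cox6a2 at -2.67 and Atp5o at 1.505 at the ends.

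Complex I, the NADH dehydrogenase, had more rises than falls. Of its 42 probe sets 30 were tested, and their median was 0.08. Among them 10 rose (33.3%), with log2 changes of 0.26 to 1.13, and 5 fell (16.7%), with changes of -0.72 to -0.22. In all 50% were called, against 52.9% of all tested probe sets, of which 23.9% rose and 29.0% fell. In the matrix arm, which takes electrons from NADH, 4 of 11 rose and 2 fell, and in the membrane arm 6 of 16 rose and 2 fell.

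The core subunits of the matrix arm split. Ndufv1, which binds NADH and the first flavin, read 1679 and 1586 in knockout islets and 1226 and 1198 in wild type islets, a log2 change of 0.42 ± 0.05 (limma, adjusted p = 0.00345). Ndufv2, an iron-sulfur subunit that lies beside it, read 1729 and 1939 in knockout and 1279 and 1327 in wild type islets, a rise of 0.48 ± 0.07 (adjusted p = 0.00692). Both thus rose by about the same amount, with no overlap between genotypes, and the rise of Ndufv2 was lost without wild type replicate 1 (adjusted p = 0.0514). A second, dim probe set of Ndufv2 gave 0.53 ± 0.21 (adjusted p = 0.103). Ndufs1, the largest iron-sulfur subunit, read 519 and 512 in knockout and 624 and 646 in wild type islets, a log2 change of -0.29 ± 0.05 (adjusted p = 0.0148). Ndufs3, a core subunit of the arm that carries electrons on to ubiquinone, read 1157 and 1148 in knockout and 1317 and 1371 in wild type islets, a log2 change of -0.22 ± 0.04 (adjusted p = 0.0159). Neither fall was called when either wild type array was left out (adjusted p between 0.0873 and 0.142).

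The largest changes of complex I were in accessory subunits. Ndufa9, at the foot of the matrix arm, read 1108 and 949 in knockout islets, against 448 and 464 in wild type islets, a rise of 1.13 ± 0.09 (adjusted p = 0.00146). Ndufb7, of the membrane arm, read 862 and 1219 in knockout and 476 and 471 in wild type islets, a rise of 1.07 ± 0.18 (adjusted p = 0.0101). Its knockout arrays lay apart from each other but both above wild type, and the call was lost without either wild type array (adjusted p = 0.0509 and 0.0527) and with no filter on low values (0.0576). Ndufa3, a small membrane arm subunit, read 1855 and 1595 in knockout and 1056 and 1043 in wild type islets, a rise of 0.70 ± 0.08 (adjusted p = 0.00421), and its dim second probe set gave 0.39 ± 0.29 (adjusted p = 0.315). Smaller rises, between 0.26 and 0.41, were those of Ndufa13, Ndufb8, Ndufa2, Ndufc1 and Ndufb6, all accessory subunits.

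Falls among the accessory subunits were fewer. Ndufb2, a small membrane arm subunit, read 1661 and 1563 in knockout and 2711 and 2637 in wild type islets on 1 probe set, a log2 change of -0.72 ± 0.05 (adjusted p = 8.21e-04). A second probe set read 1443 and 1559 in knockout and 1992 and 2014 in wild type islets, a log2 change of -0.41 ± 0.05 (adjusted p = 0.00478). Both bright probe sets of the gene thus fell, and the other 2 were listed below 0 on every array. Ndufab1, the mitochondrial acyl carrier protein, which also serves fatty acid synthesis in the mitochondrion, read 679 and 746 in knockout and 981 and 1032 in wild type islets, a log2 change of -0.49 ± 0.07 (adjusted p = 0.00633). The least changed member of the complex was Ndufb5, with 2246 and 2095 in knockout, against 2229 and 2271 in wild type islets (log2 change -0.05 ± 0.05, adjusted p = 0.41), although it passed as a fall with quantile normalization (-0.15, adjusted p = 0.0227) and without knockout replicate 1 (-0.10, adjusted p = 0.0489). Ndufa5, Ndufa6, Ndufa7, Ndufa8, Ndufa10, Ndufb3, Ndufb9, Ndufb10, Ndufb11 and Ndufv3 did not pass either, with changes between -0.19 and 0.18. The assembly factors Ndufaf1 and Ndufaf4 gave 0.06 ± 0.21 and -0.28 ± 0.16 without passing.

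Complex II, the succinate dehydrogenase, which also belongs to the citric acid cycle, moved on MG-U74A by less than 1.5-fold on the log2 scale in each of its genes. All 4 of its genes were tested, and 2 rose and 1 fell, with a median of 0.22. The share called was 75%, against 52.9% of all tested probe sets. Sdhb, the iron-sulfur subunit, read 1309 and 1254 in knockout and 1135 and 1107 in wild type islets (0.19 ± 0.04, adjusted p = 0.028). Of the pair of membrane anchors, Sdhd read 1131 and 1186 in knockout and 968 and 974 in wild type islets (0.25 ± 0.05, adjusted p = 0.0139), while Sdhc read 776 and 811 in knockout and 947 and 989 in wild type islets (-0.28 ± 0.05, adjusted p = 0.0141). The anchors, which hold the complex in the membrane together, thus moved in opposite directions. These 3 calls were lost without either wild type array. Sdha, the flavoprotein, was dim, with 98.5 and 66.7 in knockout and 42.4 and 67.5 in wild type islets, and did not pass (0.43 ± 0.28, adjusted p = 0.268).

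Complex III, the cytochrome c reductase, had its largest fall in a core protein and its largest rise in a small subunit. All 9 of its probe sets were tested, and 3 rose and 4 fell (77.8% called, against 52.9% of all tested probe sets). The median was -0.01 over probe sets and -0.15 with 1 probe set per gene. Uqcrc2, core protein 2, read 515 and 451 in knockout islets, against 1029 and 1030 in wild type islets, a log2 change of -1.06 ± 0.08 (adjusted p = 0.0012). Its partner Uqcrc1, core protein 1, read 1211 and 1353 in knockout and 1158 and 1124 in wild type islets and did not pass (0.16 ± 0.07, adjusted p = 0.115). Uqcrc2 thus stood at 0.469 times its wild type mean and Uqcrc1 at 1.12 times its own, a difference between genes that was not tested.

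The small subunits of complex III were divided. Uqcr11, the smallest, read 676 and 749 in knockout and 318 and 333 in wild type islets, a rise of 1.07 ± 0.08 (adjusted p = 0.0011). Uqcr10 read 1583 and 1561 in knockout and 1083 and 1021 in wild type islets, a rise of 0.57 ± 0.05 (adjusted p = 0.00157). Uqcrq, a ubiquinone-binding subunit, read 3437 and 3453 in knockout and 5299 and 5348 in wild type islets, a log2 change of -0.62 ± 0.03 (adjusted p = 4.01e-04). In all 3 the replicates lay close together and the genotypes far apart. Uqcrb read 1094 and 1065 in knockout and 1312 and 1332 in wild type islets, a smaller change of -0.29 ± 0.04 (adjusted p = 0.00665) that was lost without either wild type array (0.0653 and 0.0764). Uqcrh, the hinge protein that helps bind cytochrome c1, changed least, with 1148 and 1183 in knockout, against 1160 and 1191 in wild type islets (-0.01 ± 0.04, adjusted p = 0.822).

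The direction of Cyc1, the cytochrome c1 of complex III, was not settled. Its brighter probe set read 2479 and 2594 in knockout and 3198 and 3277 in wild type islets, a log2 change of -0.35 ± 0.04 (adjusted p = 0.00364). The other, whose name carries a suffix for probes chosen under relaxed rules, read 1709 and 1966 in knockout and 1535 and 1445 in wild type islets, a rise of 0.29 ± 0.08 (adjusted p = 0.0442). The rise was lost in fits with quantile normalization, median scaling, no filter, no variance trend or a replicate block, and without either wild type array or knockout replicate 2 (adjusted p between 0.0664 and 0.19).

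**Figure D2:**
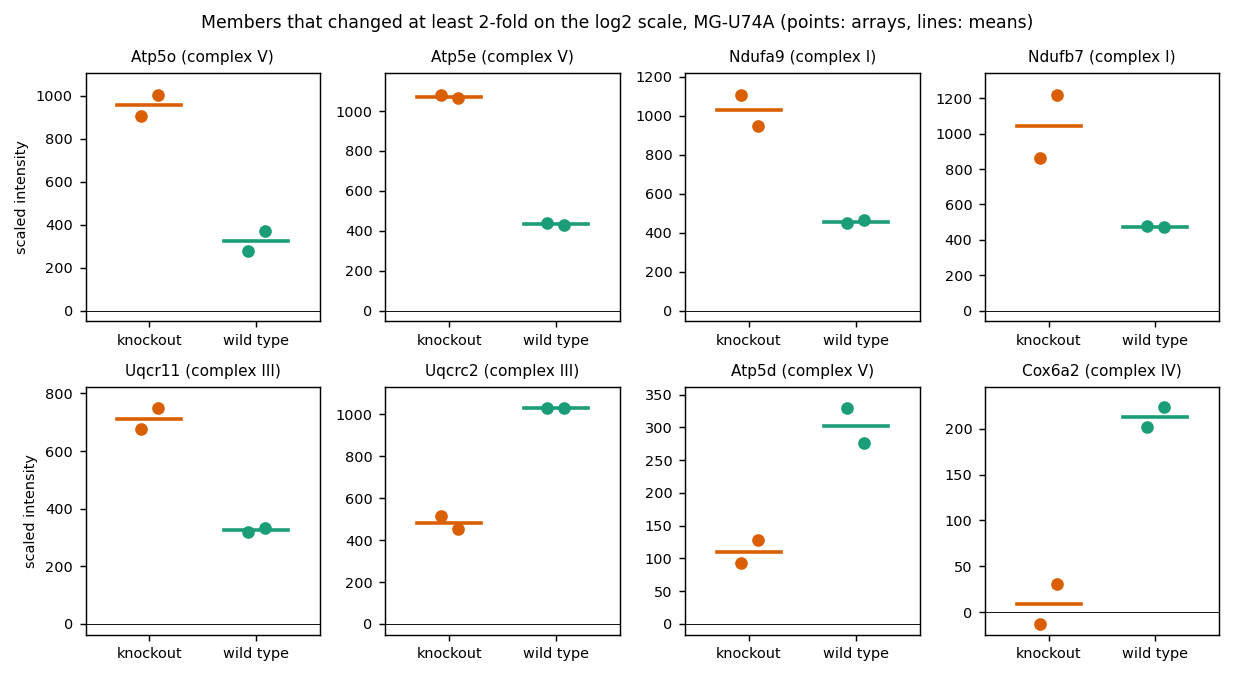
Scaled intensity on each MG-U74A array of the 8 members that passed the test with a change of at least 1 log2 unit, with knockout arrays (orange) left of wild type arrays (green) and lines at the means. Atp5o, Atp5e, Ndufa9, Ndufb7 and Uqcr11 are higher and Uqcrc2, 1 probe set of Atp5d and Cox6a2 lower in knockout, with no overlap in any panel and 1 knockout array of Cox6a2 below 0.

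Complex IV, the cytochrome c oxidase, showed moderate rises in several subunits, and falls that included both measured forms of subunit 6a. Of its 23 probe sets 14 were tested, and their median was -0.01. Among them 5 rose, with log2 changes of 0.29 to 0.57, and 3 fell, with changes of -2.67 to -0.13. The share called was 57.1%, against 52.9% of all tested probe sets. Cox7a2l, a relative of subunit 7a that joins complexes III and IV into larger assemblies, read 1369 and 1341 in knockout and 906 and 908 in wild type islets, a rise of 0.57 ± 0.04 (adjusted p = 0.00103). Cox7a2, the subunit 7a form found in most tissues, read 1374 and 1370 in knockout and 1066 and 1071 in wild type islets, a rise of 0.35 ± 0.04 (adjusted p = 0.00302). Its heart and muscle form Cox7a1 was listed below 0 on all 4 arrays. Cox7b read 1480 and 1543 in knockout and 1189 and 1166 in wild type islets, also a rise of 0.35 ± 0.04 (adjusted p = 0.00437), and Cox6c rose by 0.29 ± 0.03 (adjusted p = 0.00335), with 4607 and 4480 in knockout and 3710 and 3714 in wild type islets.

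Both forms of subunit 6a fell. Cox6a1, the form of most tissues, read 3205 and 3272 in knockout islets, against 4867 and 4969 in wild type islets, a log2 change of -0.60 ± 0.03 (adjusted p = 5.55e-04). Cox6a2, the heart and muscle form, read -13.2 and 31.0 in knockout and 202 and 223 in wild type islets, a change of -2.67 ± 0.45 (adjusted p = 0.0106). Since 1 knockout array lies below 0, the size of that change depends on the constant added before the log, and the call was lost without either wild type array (adjusted p = 0.0574 and 0.0634) and with no filter (0.0575). Of the skeletal muscle markers, 1 of 6 tested fell and none rose, and their sums were 662 and 643 in knockout and 978 and 845 in wild type islets. The one that fell was Tnnc2, and the muscle markers Mb, Myh1, Myh7 and Tnnt3 were listed near 0 or below it in both genotypes. Not all markers ran this way. A second Tnnc2 probe set read 41.7 and 289 in knockout and 269 and 226 in wild type islets and did not pass, and Mylpf, below the filter, read 124 and 70.7 in knockout and -5.6 and -4.1 in wild type islets. The part of muscle RNA in the fall of Cox6a2 was not tested.

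The other tissue forms of complex IV that were tested did not pass. Cox8c, a testis form of subunit 8, read 221 and 287 in knockout and 351 and 366 in wild type islets and did not pass (-0.47 ± 0.14, adjusted p = 0.0532). It passed as a fall with the stricter filter (adjusted p = 0.0496), with a replicate block (0.0492) and without knockout replicate 1 (0.0496) or 2 (0.0155). Cox8b, a heart and muscle form, read 234 and 120 in knockout and 119 and 136 in wild type islets (0.34 ± 0.32, adjusted p = 0.416), and Cox6b2, a testis form of subunit 6b, read 400 and 233 in knockout and 441 and 272 in wild type islets (-0.17 ± 0.35, adjusted p = 0.707). For both genes the spread between arrays of 1 genotype was as wide as the gap between the genotypes. The other probe sets of Cox8c, Cox8b and Cox6b2 lay below the filter on low values and were not tested. That of Cox8c and 1 of Cox6b2 were listed below 0 on every array, and the others read low in both genotypes. The values given for these forms thus rest on 1 probe set each. Cox6b1, the common form of 6b, gave 0.10 ± 0.21 (adjusted p = 0.715) and was the least changed member of the complex. Cox8a, the common form of subunit 8, was listed at or below 43.5 on every array and was not tested.

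Of the remaining subunits of complex IV, Cox4i1, a regulatory subunit, read 496 and 448 in knockout and 342 and 355 in wild type islets on its brighter probe set, a rise of 0.41 ± 0.08 (adjusted p = 0.0167). The dim one read 75.3 and 121 in knockout and 98.6 and 130 in wild type islets and did not pass (-0.19 ± 0.26, adjusted p = 0.577). Cox5b, a zinc-binding subunit, read 2561 and 2579 in knockout and 2838 and 2782 in wild type islets, the smallest of the called changes (-0.13 ± 0.03, adjusted p = 0.0331). Both calls were lost without either wild type array. Cox5a read 114 and 0.1 in knockout and 83.0 and 110 in wild type islets, and no direction can be given for it (-1.03 ± 0.89, adjusted p = 0.382).

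Complex V, the ATP synthase, held the largest rise of all members on MG-U74A, beside falls that included the alpha subunit of the F1 head. Of its 22 probe sets 19 were tested, and 5 rose and 5 fell, with a median of -0.05. The share called was 52.6%, against 52.9% of all tested probe sets. By position, 1 of 8 probe sets of the F1 head rose and 3 fell. Of these falls 2 were probe sets of 1 gene, Atp5d, and the beta subunit Atp5b had no member probe set. In the membrane part Fo 3 of 8 rose and 1 fell, and of 3 of the peripheral stalk 1 rose and 1 fell.

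In the peripheral stalk, which holds the head still, Atp5o, the subunit named for oligomycin sensitivity, read 908 and 1005 in knockout islets, against 276 and 371 in wild type islets, a rise of 1.505 ± 0.156 (adjusted p = 0.0029) to 2.95 times the wild type mean. Atp5j, coupling factor 6 of the same stalk, read 799 and 790 in knockout and 1215 and 1214 in wild type islets, a log2 change of -0.60 ± 0.04 (adjusted p = 9.55e-04). Atp5pb, the b subunit that runs the length of the stalk, read 313 and 319 in knockout and 348 and 521 in wild type islets and did not pass (-0.40 ± 0.20, adjusted p = 0.168). The 3 stalk subunits therefore did not move together on these arrays.

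In the F1 head, Atp5e, the epsilon subunit of the central stalk, read 1081 and 1064 in knockout and 440 and 429 in wild type islets, a rise of 1.26 ± 0.05 (adjusted p = 2.96e-04, the lowest among the members). Atp5a1, the alpha subunit, read 2950 and 2865 in knockout and 4053 and 3914 in wild type islets, a log2 change of -0.45 ± 0.04 (adjusted p = 0.00154). Atp5c1, the gamma subunit that turns within the head, changed least of the complex, with 1500 and 1638 in knockout, against 1531 and 1517 in wild type islets (0.04 ± 0.06, adjusted p = 0.589), and its second probe set gave -0.05 ± 0.04 (adjusted p = 0.301).

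The probe sets of Atp5d, the delta subunit, which binds Atp5e, differed among themselves. The lowest read 93.7 and 127 in knockout and 330 and 276 in wild type islets, a log2 change of -1.28 ± 0.18 (adjusted p = 0.00684), and another fell by 0.45 ± 0.12 (adjusted p = 0.0363). One more gave -0.47 ± 0.23 (adjusted p = 0.155). The only tested one with a plain name read 165 and 126 in knockout and 111 and 133 in wild type islets (0.21 ± 0.19, adjusted p = 0.399). Both falls were lost without wild type replicate 1 (adjusted p = 0.052 for the larger and 0.175 for the smaller), and the smaller also without wild type replicate 2 (0.141) and with no filter (0.0862). The level of Atp5d was thus lower by some probe sets and within the spread by others.

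In the membrane part, Atp5l, subunit g, rose on both of its probe sets. The brighter read 5391 and 5415 in knockout and 3244 and 3314 in wild type islets, a rise of 0.72 ± 0.03 (adjusted p = 3.42e-04), and the other read 700 and 611 in knockout and 330 and 336 in wild type islets, a rise of 0.92 ± 0.09 (adjusted p = 0.00226). Atp5md, a small subunit at the dimer interface, read 2720 and 2695 in knockout and 4346 and 4258 in wild type islets, a log2 change of -0.66 ± 0.03 (adjusted p = 4.21e-04). Among the genes for the proton-carrying c ring, Atp5g2 read 615 and 546 in knockout and 431 and 464 in wild type islets (0.36 ± 0.09, adjusted p = 0.0297), while Atp5g1 was dim, with 100.2 and 94.5 in knockout and 140 and 121 in wild type islets (-0.34 ± 0.15, adjusted p = 0.134). Atp5k, Atp5mpl and Atp5j2 did not pass, with changes between -0.09 and 0.40.

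Probe sets of 1 gene allow a check that does not depend on which subunit is meant. Of 8 genes with more than 1 tested probe set on MG-U74A, 4 (Atp5l, Ndufa3, Ndufb2 and Ndufv2) had the same sign on all of them, and 1 (Cyc1) had calls in opposite directions. Many members have processed pseudogenes, and 25 of the 76 tested probe sets carry a suffix in their name that marks probes shared with other transcripts or chosen under relaxed rules. Of those 25, 8 rose and 8 fell, while 27.3% of all tested probe sets with such names rose and 26.8% fell. Of the 51 with plain names 17 rose and 10 fell, while 23.0% of all with plain names rose and 29.5% fell. Among the larger changes, Uqcrc2, Cox6a1, Atp5md, Atp5e, Ndufa3, both probe sets of Ndufb2, 1 of Atp5l and both of Atp5d that fell carry such a suffix, whereas Atp5o, Ndufa9, Ndufb7, Uqcr11, Uqcrq and Atp5j do not.

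**Figure D3:**
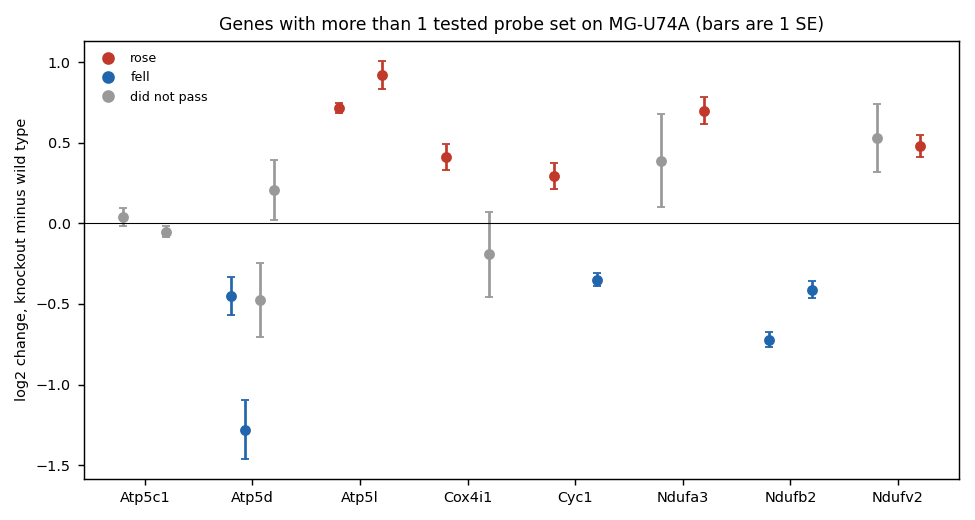
Log2 change, knockout minus wild type, with bars of 1 standard error, for the 8 genes with more than 1 tested probe set on MG-U74A. Both probe sets of Atp5l lie above 0 and both of Ndufb2 below it, those of Cyc1 lie on either side of 0, and those of Atp5d run between -1.28 and 0.21.

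MG-U74B carried 14 members, of which 10 were tested, and 0 rose and 0 fell in limma's test. In this comparison 17.5% of all 7861 tested probe sets changed, with 8.59% rising and 8.87% falling, and 2 of the 10 members had an unadjusted p below 0.05. Their median log2 change was 0.26, and that of all tested probe sets was 0.11. Both knockout arrays lay on 1 side of both wild type arrays for 8 of the 10, against 65.0% of all tested probe sets. The members' adjusted p lay between 0.0883 and 0.77.

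Of these, Ndufaf3, an assembly factor of complex I, read 1282 and 1187 in knockout and 945 and 943 in wild type islets (0.38 ± 0.11, adjusted p = 0.0884), with no overlap between genotypes. Ndufs3 read 545 and 545 in knockout and 147 and -10.4 in wild type islets (3.12 ± 0.94, adjusted p = 0.0883), while its MG-U74A probe set had fallen. Since 1 wild type array of Ndufs3 lies below 0, the size of its change on MG-U74B depends on the constant added before the log. Cox4i1 read -71.8 and 188 in knockout and 300.5 and 328 in wild type islets (-2.22 ± 1.05, adjusted p = 0.209). Cox6a1 read 515 and 29.9 in knockout and 671 and 745 in wild type islets (-2.09 ± 1.08, adjusted p = 0.239). In both genes both knockout arrays lay below both wild type arrays, but far apart from each other. The size of these changes is therefore not settled, and neither passed. Cox6a1 counted as a fall without knockout replicate 1 (-3.74, adjusted p = 0.0497) and Cox4i1 without knockout replicate 2 (-3.76, adjusted p = 0.0473). Sdhb read 808 and 784 in knockout and 630 and 652 in wild type islets (0.30 ± 0.13, adjusted p = 0.174), and Sdhc read 127 and 211 in knockout and 292 and 286 in wild type islets (-0.73 ± 0.33, adjusted p = 0.186), each on the side of its MG-U74A value. Ndufs7, a core subunit with an iron-sulfur cluster, read 1265 and 2166.4 in knockout and 1488 and 1288 in wild type islets (0.25 ± 0.27, adjusted p = 0.543). Ndufaf4, Ndufaf8 and Cox6b1 gave 0.48 ± 0.23, -0.17 ± 0.14 and 0.27 ± 0.59 without passing. Arrays of both types with the same replicate label may share RNA, which the labels do not say.

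**Figure D4:**
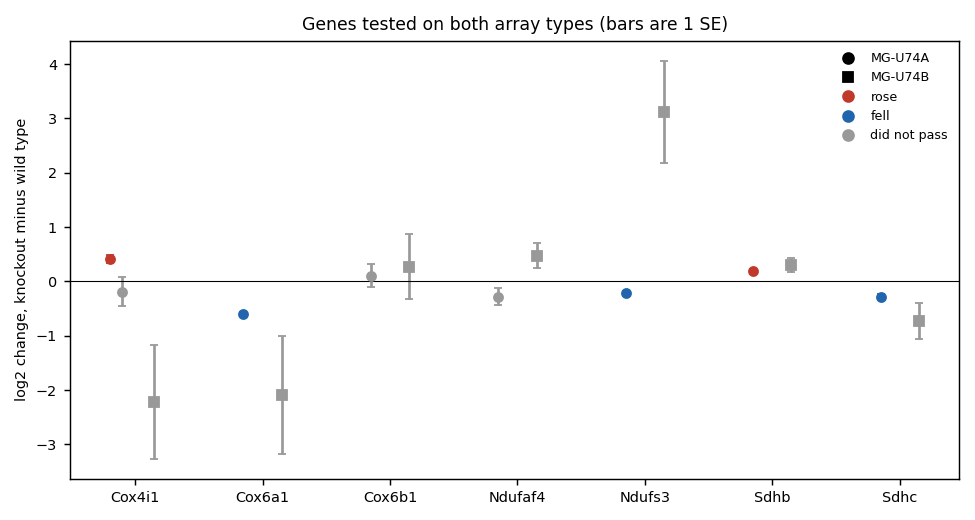
Log2 change, knockout minus wild type, with bars of 1 standard error, for the 7 genes tested on both array types (circles MG-U74A, squares MG-U74B). The MG-U74B values have the wider bars, none of them passed, and Ndufs3 and Cox4i1 lie on opposite sides of 0 from their called MG-U74A probe sets.

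Other mitochondrial genes moved in ways that differed by list. Among assembly factors of the complexes on MG-U74A, 1 of 15 tested probe sets rose (6.67%) and 6 fell (40.0%), with a median of -0.39. Of all tested probe sets of MG-U74A 23.9% rose and 29.0% fell. Tmem70, which helps to build complex V, read 655 and 640 in knockout and 1599 and 1550 in wild type islets (-1.25 ± 0.04, adjusted p = 2.46e-04). Sdhaf1, an assembly factor of complex II, read 656 and 658 in knockout and 1022 and 1033 in wild type islets (-0.63 ± 0.04, adjusted p = 0.00101). Surf1, Coa6 and Cox18, which serve complex IV, and Lrpprc, which stabilises mitochondrial messenger RNA, gave falls of -0.54, -0.56, -0.39 and -0.50, and Sdhaf2 rose by 0.46. On MG-U74B 4 of 17 assembly factor probe sets rose (23.5%) and 0 fell, against 8.59% and 8.87% of all tested probe sets. Among the 4 were Cox19, Dmac1 and Pet100, with changes of 0.58, 0.48 and 0.69. The fourth was 1 probe set of Uqcc1, with 205 and 258 in knockout and 17.1 and 35.4 in wild type islets, so that its fold hinges on the constant. The other tested MG-U74B probe set of Uqcc1 gave -1.13 ± 1.40 with overlapping genotypes, and the MG-U74A one gave -0.50, both without passing.

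On MG-U74A the list of electron carriers, membrane carriers and related enzymes, called carriers below, had 7 falls and 3 rises among 21 tested probe sets. The shares were 33.3% and 14.3%, against 29.0% and 23.9% of all tested probe sets, so the falls lay near the share of all. The median of the list was -0.12. The falls included the enzyme Dhodh (-0.81) and Slc25a17 (-0.84), a carrier of the peroxisome. Slc25a1, the citrate carrier, fell on both of its probe sets (-1.02 and -0.80), Slc25a11, the oxoglutarate carrier, fell by 0.94, and Slc25a4, an ATP and ADP exchanger, fell by 0.37. Of its relative Slc25a5, 2 of 3 probe sets rose (0.66 and 0.21). Slc25a3, the phosphate carrier, rose by 0.69, and cytochrome c itself, Cycs, did not pass (0.05).

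Among regulators of mitochondrial biogenesis, on the same array type, 0 of 10 rose and 2 fell (20%), with a median of -0.23. Of all tested probe sets there 23.9% rose and 29.0% fell. Polrmt, the mitochondrial RNA polymerase, read 131 and 133 in knockout and 273 and 268 in wild type islets (-0.91 ± 0.10, adjusted p = 0.00346), and Yy1, a general transcription factor, fell by 0.69 ± 0.14 (adjusted p = 0.0169). Of the factors whose motifs were searched above, Yy1 is thus among the falls, while Gabpa and Esrra gave -0.01 and 0.01 without passing.

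The citric acid cycle and the pyruvate dehydrogenase complex as a whole supply NADH and succinate to the chain. Their list, which also holds pyruvate carboxylase (Pcx), fell on MG-U74A for 8 of 19 probe sets (42.1%) and rose for 4 (21.1%). The shares of all tested probe sets were 29.0% and 23.9%. The median of the list was -0.25. Idh2 read 202 and 234 in knockout and 724 and 738 in wild type islets (-1.64 ± 0.09, adjusted p = 6.01e-04), and Fh1 read 783 and 752 in knockout and 1588 and 1621 in wild type islets (-1.04 ± 0.04, adjusted p = 3.42e-04). Dlst, a subunit of the oxoglutarate dehydrogenase, rose on both probe sets (1.12 and 1.46), while its other subunits Ogdh and Dld fell (-0.31 and -0.33).

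On MG-U74A, where 23.9% of all tested probe sets rose and 29.0% fell, protein import genes rose for 5 of 17 (29.4%) and fell for 2 (11.8%), with a median of 0.31. Mitochondrial ribosomal proteins rose for 13 of 61 (21.3%) and fell for 6 (9.84%), with a median of 0.05. Cytosolic ribosomal proteins rose for 19 of 32 (59.4%) and fell for 4 (12.5%), with a median of 0.47. The median of the respiratory subunits there, 0.06, thus lay near that of the mitochondrial ribosomal proteins, while the medians of assembly factors, carriers, regulators and the citric acid cycle lay below that of all tested probe sets of MG-U74A. On MG-U74B, where the median of all tested probe sets was 0.11, that of assembly factors was 0.20 and that of the citric acid cycle 0.75 over 5 probe sets, both above it. Carriers stood there at -0.08, regulators at -0.01 and protein import at -0.25, below it. No test of these lists was made, and genes of 1 list are not replicates.

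**Figure D5:**
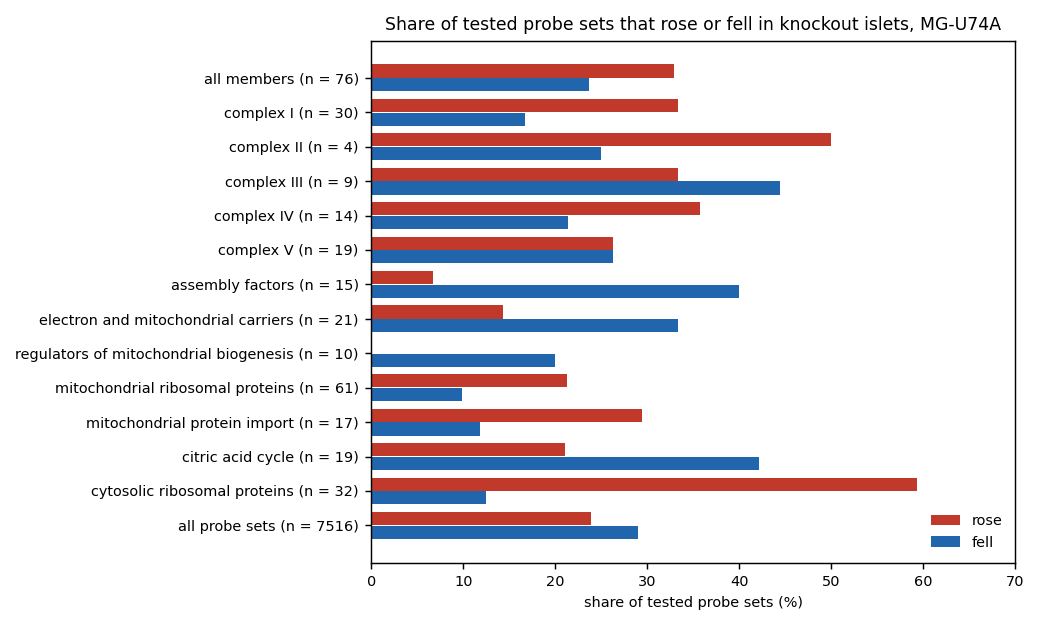
Share of tested probe sets, in percent, that rose (red) or fell (blue) in knockout islets on MG-U74A, for all members, each complex, related lists and all 7516 tested probe sets. The members stand at 32.9% and 23.7% and all tested probe sets at 23.9% and 29.0%, assembly factors fell for 40.0% and rose for 6.67%, and cytosolic ribosomal proteins rose for 59.4%.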

How the data were processed

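Total islet RNA was measured on MG-U74A and MG-U74B arrays, 2 of each genotype and type. The authors deposited 1 linear intensity for each probe set, scaled to a trimmed mean of 250.2 (MG-U74A) or 250.1 (MG-U74B), as the values show; the program used is not given in the sources. Each array was rescaled to the common trimmed mean (2% trimmed at each end), negative values were replaced by 0, and 10% of that mean was added before log2. Control probe sets and those averaging below 25% of it were left out, leaving 7516 and 7861. limma 3.58.1 (R 4.3.3; lmFit, eBayes with trend, two-sided, Benjamini-Hochberg within the array type) compared the genotypes without a replicate block. The number of arrays limits precision, and p-values reflect only how far these arrays differ, which can be technical in part. Same-numbered arrays hardly deviated together (correlation 0.02 on MG-U74A, 0.03 on MG-U74B). The fit was also run on simulated data in which few probe sets changed, whereas 52.9% were called on MG-U74A. That run therefore does not test the scaling or the error rate in these data. Probe sets annotated with several symbols (10 on MG-U74A, 3 on MG-U74B) were left out. Named were the up to 4 largest rises and falls per complex whose genotypes did not overlap, catalytic subunits, isoform pairs, genes with several probe sets and the least changed member. Members and lists were chosen with earlier results of these data known. Alternatives were other constants, scalings and filters, no variance trend, a replicate block, 1 probe set per gene, and leaving out each array. Sets with plain names only were an alternative chosen after the data were seen.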

Additional observations from a re-analysis of the deposited data

How the results depend on the processing

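On MG-U74A the counts of 25 rises and 18 falls came to between 12 and 27 rises and between 10 and 23 falls when 1 array was left out, and the median of 0.06 came to between 0.05 and 0.09; it was 0.00 with no filter on low values. With plain probe set names only, 10 fell. With 1 probe set per gene the median of complex III was -0.15. With the replicate number as a block 20 rose and 18 fell; the numbers share no stated source, and the blocked fit ended the rises of Ndufa2, Ndufa13, Sdhb, Cyc1 and Atp5g2 and the fall of Cox5b (adjusted p between 0.0508 and 0.105), and added a fall of Cox8c. Without 1 wild type array the rises of Ndufv2 (without replicate 1) and Cox7b and the fall of Ndufab1 (without replicate 2) were lost as well, with adjusted p of 0.0514, 0.051 and 0.0533; a lone array is assumed to vary like the other genotype. On MG-U74B leaving out 1 array gave between 0 and 1 falls and a median between 0.017 and 0.237; without either wild type array no probe set of that array type passed. Over the alternatives that kept all arrays, 432 of the values recomputed kept their side of the threshold and direction, 14 lost a call, 3 gained one and 1 changed sign; with 1 array left out these numbers were 180, 29, 8 and 11. The values that changed sign were uncalled in the main fit and in the fits that reversed them. Cox8b (without knockout replicate 2) and Atp5c1 (without knockout replicate 1) did pass as rises in another fit. Uqcrh became 0.015 with quantile normalization, and ranged between -0.034 and 0.0090 with 1 array left out. With 1 array left out, Cox6b2 ranged between -0.529 and 0.193, Cox8b between -0.077 and 0.765, the dim probe set of Cox4i1 between -0.462 and 0.081, Cox6b1 between -0.113 and 0.314 and Atp5c1 between -0.023 and 0.102, and on MG-U74B Cox6b1 ranged between -0.246 and 0.791 and Ndufs7 between -0.127 and 0.637. The causes were not tested. Dim probe sets limit what can be read of Sdha, Cox5a, Cox6b1, Cox8a and Atp5g1.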
